A study of Mus musculus with 4 samples.

Results

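Glycolysis and its side branches were examined in mouse tumors with and without knockdown of Taz, through 39 genes taken by symbol from a table of 15424 genes. They cover glucose transport, glycolysis, lactate formation and export, the pyruvate dehydrogenase step, the pentose phosphate pathway and phosphoglucomutase. Pyruvate kinase is listed under its older symbol Pkm2. The symbols Pgm1 and Pgm2 in the table are also older ones: by Entrez identifier, the row Pgm2 is the gene now called Pgm1, and the row Pgm1 is the gene now called Pgm2.

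Glycolysis splits glucose into pyruvate in the cytosol and yields ATP and NADH. Pyruvate is then reduced to lactate and exported, or oxidised in mitochondria by the pyruvate dehydrogenase complex, which the pyruvate dehydrogenase kinases switch off. The pentose phosphate pathway branches off at glucose 6-phosphate and supplies NADPH and ribose. Tumors often take up much glucose and release lactate even where oxygen is present, and many genes of the pathway are known targets of the hypoxia-inducible factor HIF1 and of MYC.

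Transplanted R728T1 cells formed the tumors, subcutaneously, in nude mice (a strain without a thymus). The labels describe this line as non-SMCs from a mouse model built on Rb and P53, without spelling the abbreviation out, and call the cell type small cell lung cancer. One group carried a control short hairpin RNA against luciferase (shLuc) and the other a knockdown of Taz (shTaz), with 2 samples each. All 4 samples come from this 1 line, and the labels name neither the hairpin sequence, the age of the mice nor the number of animals. The authors deposited 1 FPKM value per gene and group, that is, fragments per kilobase of transcript, scaled to the mapped total. It is not stated whether that value pools, averages or represents the samples, so no difference below has a replicate check, an SD or a test. Host and graft are both mouse, and in such bulk tissue fewer cells of a type and less RNA per cell cannot be told apart.

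Wwtr1, which encodes the coactivator TAZ, was at 23.4 FPKM in shLuc and 15.1 FPKM in shTaz. Taz, in this table the older symbol of the cardiolipin enzyme gene Tafazzin, was at 13.7 and 9.5 FPKM, and Yap1 was at 8.59 and 12.0 FPKM. Among neuroendocrine and neuronal markers, Syp was at 0.557 and 0.447 FPKM and Insm1 at 0.169 FPKM in shLuc and listed at 0 in shTaz, so these markers of the labelled cell type were low. Uchl1 was at 10.1 and 1.51 FPKM, and Ncam1 at 39.8 and 43.8 FPKM. The values of the columns summed to 501728 FPKM in shLuc and 427921 FPKM in shTaz, and the depth is unknown.

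The 39 genes together differed little between the groups. They summed to 4346 FPKM in shLuc and 4377 FPKM in shTaz, or 0.866% and 1.02% of the column sums. A difference is given throughout as log2((shTaz FPKM + 1)/(shLuc FPKM + 1)), so that positive values are higher in shTaz and changes of genes near 1 FPKM are understated. The median difference of the 39 genes was 0.12, and that of the 11650 genes whose mean reached 1 FPKM was 0.12 as well. All 39 genes reached that mean, the lowest being Slc2a3 with 1.3 FPKM. Sizes such as 1.5-fold are read on the same scale.

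By a size of 1.5-fold, 5 of the 39 genes were higher in shTaz, where 17.3% of the 11650 genes were. They were Hk2, Slc2a1, Slc16a1, Pdk1 and Pdha1. Another 2, Pgls and Pdk2, were lower by this size, beside 9.96% of all genes, and 32 lay within 1.5-fold. In either direction these were 7 of 39 genes, beside 27.3% of all genes. Only Pgls reached a 2-fold difference, to the lower side, which 3.25% of all genes did, and 7.21% were 2-fold different in either direction. Both counts were below the share of all genes, but that share varied with abundance. Of the 20 pathway genes with a mean of 10 to 100 FPKM, 5 were 1.5-fold higher and 1 lower. Of all 4321 genes at that level, 11.8% were higher and 10.7% lower. Of the 10 pathway genes with a mean of 1 to 10 FPKM, none was higher and 1 was lower, beside 22.1% and 8.56% of all 6772 genes there. Whether the list differs from its background was not tested.

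**Figure D1:**
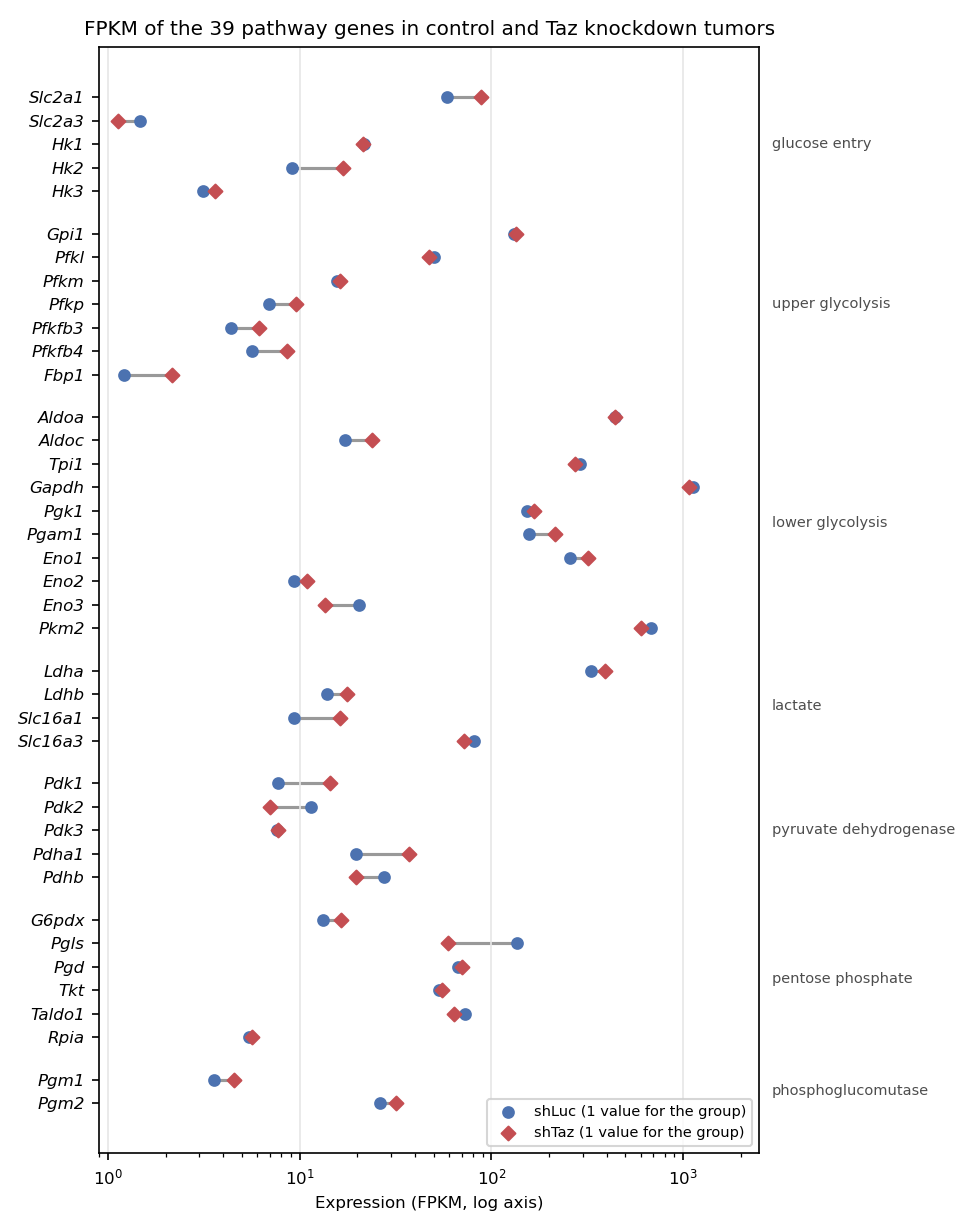
Expression of the 39 pathway genes in FPKM on a log axis, with 1 deposited value per group: circles for shLuc and diamonds for shTaz, joined by a grey line. Genes are ordered by their place in the pathway. Most pairs nearly coincide, and the widest gap is that of Pgls (136 and 59.5 FPKM).

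Among the 5 genes of glucose entry, Hk2 and Slc2a1 were 1.5-fold higher in shTaz, beside 17.3% of all genes. The other 3 lay within 1.5-fold. Hk2 (chr6:82725025-82774454 in mm10, minus strand), the hexokinase that binds mitochondria and is induced in many tumors, was at 9.14 FPKM in shLuc and 16.9 FPKM in shTaz, a difference of 0.82 that 8.19% of all genes exceeded. Slc2a1 (chr4:119108711-119137983, plus strand), the widespread glucose transporter GLUT1, was at 58.5 and 88.5 FPKM, a difference of 0.59 that lay just past 1.5-fold. Hk1, the constitutive hexokinase, was nearly equal at 21.6 and 21.4 FPKM. Hk3, the hexokinase of myeloid cells, was at 3.12 and 3.63 FPKM, and Slc2a3, the high-affinity transporter GLUT3, at 1.47 and 1.13 FPKM.

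The makeup of the hexokinase step differed with these values. Hk2 made up 27.0% of the summed hexokinase FPKM in shLuc and 40.3% in shTaz, and Hk1 63.8% and 51.0%. The ratio of Hk1 to Hk2 was 2.36 in shLuc and 1.26 in shTaz. Hk1 was the most abundant hexokinase transcript in both groups. GLUT1 dominated over GLUT3, with 97.5% of their sum in shLuc and 98.7% in shTaz.

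Promoter sequence is shown for Slc2a1, Hk2 and Slc16a1, which were 1.5-fold higher in shTaz and hold a match, and for Ldha, the lactate gene with the most matches. Each run is the 250 bases before the transcript start of the first RefSeq entry (build GRCm38.p6, the assembly of mm10), written 5′ to 3′ on the gene's strand. Capitals mark ACGTG or its reverse complement CACGT, the core of the hypoxia response element. Where both overlap they form CACGTG, the E-box that MYC and ChREBP can bind.
Slc2a1: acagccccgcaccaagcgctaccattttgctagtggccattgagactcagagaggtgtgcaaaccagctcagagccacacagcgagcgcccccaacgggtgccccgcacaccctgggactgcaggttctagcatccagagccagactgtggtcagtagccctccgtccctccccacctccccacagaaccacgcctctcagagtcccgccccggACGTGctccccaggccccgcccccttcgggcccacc
Hk2: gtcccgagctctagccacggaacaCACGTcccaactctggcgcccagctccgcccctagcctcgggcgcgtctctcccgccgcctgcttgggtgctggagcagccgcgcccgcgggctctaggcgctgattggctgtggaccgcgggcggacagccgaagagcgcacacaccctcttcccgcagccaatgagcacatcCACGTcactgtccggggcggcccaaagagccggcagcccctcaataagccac
Slc16a1: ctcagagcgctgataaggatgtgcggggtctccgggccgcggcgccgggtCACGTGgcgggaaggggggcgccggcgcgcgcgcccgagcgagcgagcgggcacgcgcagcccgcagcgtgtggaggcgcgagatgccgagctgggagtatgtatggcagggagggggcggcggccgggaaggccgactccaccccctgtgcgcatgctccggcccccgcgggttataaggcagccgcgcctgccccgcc
Ldha: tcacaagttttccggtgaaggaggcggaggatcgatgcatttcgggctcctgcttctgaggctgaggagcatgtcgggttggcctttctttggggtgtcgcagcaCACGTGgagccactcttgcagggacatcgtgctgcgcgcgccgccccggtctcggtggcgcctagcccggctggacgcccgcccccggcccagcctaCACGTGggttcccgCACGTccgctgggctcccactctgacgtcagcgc
The runs lie at chr4:119108495-119108744 on the plus strand for Slc2a1, chr6:82774455-82774704 on the minus strand for Hk2, chr3:104638414-104638663 on the plus strand for Slc16a1 and chr7:46845554-46845803 on the plus strand for Ldha.

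The Slc2a1 run holds 1 match, the Hk2 run 2 separate ones and the Slc16a1 run 1 E-box. In the Ldha run, 2 E-boxes and 1 further match are marked. RefSeq gave promoters for 38 of the 39 genes, and 17 of these genes (44.7%) held ACGTG on either strand in at least 1 promoter. Counted in the same way by gene, 18.5% of all 27025 genes with a promoter did, and 25.3% of the 8880 whose mean reached 1 FPKM. Counted by promoter, of which a gene can have several that overlap, the share was 37.7% of 53. Over all 32851 promoters of the same length it was 16.6%, and over the 11323 promoters of expressed genes (mean of 1 FPKM or more) the share was 21.6%. The median GC content was 60.4%, 52.4% and 59.6% in these 3 sets. For CACGTG the corresponding shares by promoter were 9.43%, 6.02% and 8.28%.

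Of the 5 genes that were 1.5-fold higher 3 held a match, and of the other 33 genes with a promoter 14 did. Pdk1 and Pdha1, both 1.5-fold higher in shTaz, had no match in this window, while Pdk2, which was lower, had an E-box. Gapdh, Tpi1 and Eno1 had none either. A match here describes letters only, and its absence says nothing of sites elsewhere.

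The next steps turn glucose 6-phosphate into fructose 1,6-bisphosphate, the committed stage of glycolysis. Here no gene of 7 reached 1.5-fold in either direction, beside 27.3% of all genes. By smaller amounts 6 were higher in shTaz, with a list median of 0.41, and 4 of 7 lay above the median of all genes. Gpi1, the phosphoglucose isomerase, was at 131 FPKM in shLuc and 134 FPKM in shTaz. Pfkl, the liver-type and here the most abundant phosphofructokinase, was at 50.5 and 47.2 FPKM, and the muscle-type Pfkm at 15.6 and 16.2 FPKM.

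The rarer platelet-type Pfkp was at 6.95 and 9.59 FPKM, a difference of 0.41. Summed phosphofructokinase was level at 73.0 FPKM in shLuc and 72.9 FPKM in shTaz, with Pfkp contributing 9.52% and 13.1%. That gap of 3.63 percentage points was 0.311 with the GC and length trends of all genes removed. The exons of Pfkp overlap those of Pitrm1 on the opposite strand by 748 bases, and Pitrm1 was at 8.96 and 12.4 FPKM. As no strand setting is stated, reads of the shared bases cannot be assigned.

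Pfkfb3 and Pfkfb4 make fructose 2,6-bisphosphate, the strongest activator of phosphofructokinase. Pfkfb3 was at 4.40 FPKM in shLuc and 6.15 FPKM in shTaz, and Pfkfb4, known to respond to hypoxia, at 5.67 and 8.58 FPKM with a difference of 0.52. Fbp1, the gluconeogenic bisphosphatase that works against phosphofructokinase, was low in both groups at 1.21 and 2.17 FPKM. Its difference, 0.52, passed 1.5-fold in 4 of 10 alternatives, as did that of Pfkfb4.

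Lower glycolysis, from aldolase to pyruvate kinase, held the most abundant transcripts. Of its 10 genes none reached 1.5-fold, beside 27.3% of all genes, and the list median was 0.06. Gapdh, the dehydrogenase often used as a reference transcript, was at 1125 FPKM in shLuc and 1066 FPKM in shTaz, ranking 67th and 48th of all genes listed. Pkm2, pyruvate kinase, was at 681 and 602 FPKM, and Aldoa, the main aldolase, at 441 and 443 FPKM. Tpi1, triosephosphate isomerase, was at 291 and 271 FPKM, and Pgk1, phosphoglycerate kinase, at 152 and 166 FPKM.

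Pgam1, the phosphoglycerate mutase, was the abundant gene with the largest difference, 0.45, at 157 FPKM in shLuc and 215 FPKM in shTaz. The 9 pathway genes that averaged 100 FPKM or more had differences from -0.18 to 0.45 with a median of 0.03. All 557 genes of that abundance had a median of -0.29, and 20.8% of them were 1.5-fold lower. The abundant glycolytic genes lay at the higher side of that background, and whether they differ from it was not tested.

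The enolases had a complication. Eno1, the ubiquitous enolase, was at 256 FPKM in shLuc and 317 FPKM in shTaz. Gm5506, an intronless copy also called Eno1b, was at 278 and 203 FPKM, and its transcript matches that of Eno1 at 99.5% of 1736 aligned bases. Reads from 2 such sequences cannot be told apart over most of their length, so both values are uncertain.

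Summed, Eno1 and Gm5506 were at 534 and 520 FPKM, a difference of -0.037 in place of the 0.31 of Eno1 alone. The copy held 52.0% of that sum in shLuc and 39% in shTaz. Besides Eno1, only Gapdh matched another listed gene over at least 500 aligned bases at 95% identity or more, and its 5 listed pseudogenes summed to 6.08 and 6.17 FPKM.

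Eno3, the muscle enolase, was lower in shTaz at 20.3 and 13.6 FPKM, a difference of -0.54 just inside 1.5-fold. Of 10 skeletal muscle markers, 6 reached a mean of 1 FPKM. Of those, 4 were 2-fold higher in shTaz, beside 3.96% of all genes. Another 1, Tnnc2, was 1.5-fold lower, beside 9.96% of all genes. Of the 4, Acta1, Ckm and Mylpf were below 1 FPKM in shLuc and reached that mean only through shTaz. The 10 markers summed to 37.2 FPKM in shLuc and 67.4 FPKM in shTaz, and Acta1, Myh4 and Myl1 were listed at 0 in shLuc. The sum of the muscle markers was thus higher in shTaz while Eno3 was lower. Their part in the muscle-type isozymes was not tested. The neuronal Eno2 was at 9.34 and 10.9 FPKM, and the brain-type aldolase Aldoc at 17.2 and 23.7 FPKM, or 3.75% and 5.09% of the aldolase sum.

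At the lactate step, the dehydrogenases were both slightly higher in shTaz and the transporters differed in opposite directions. Ldha, which favours lactate formation, was at 330 FPKM in shLuc and 393 FPKM in shTaz, a difference of 0.25, and Ldhb, which favours pyruvate, at 13.9 and 17.6 FPKM. Their ratio was 23.8 and 22.3, so that Ldha made up 96.0% and 95.7% of the sum. That share differed by less than 1 percentage point.

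Slc16a1 (chr3:104638668-104658462, plus strand), the monocarboxylate transporter MCT1 that can import or export lactate, was at 9.31 FPKM in shLuc and 16.2 FPKM in shTaz, a difference of 0.74. Slc16a3, the lactate exporter MCT4 of glycolytic cells, was at 80.9 and 72.3 FPKM. The ratio of Slc16a3 to Slc16a1 was 8.69 in shLuc and 4.47 in shTaz, while their sum was close, at 90.2 and 88.5 FPKM. The share of Slc16a1 was 10.3% and 18.3%, a gap of 7.97 percentage points that was 2.18 with the GC and length trends of all genes removed. Bsg, the chaperone basigin that both transporters need at the membrane, was at 390 and 331 FPKM, and Emb, the related embigin, was 1.5-fold higher at 20.4 and 31.6 FPKM. The difference of Emb, 0.61, was 0.22 with the trend over GC content removed.

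**Figure D2:**
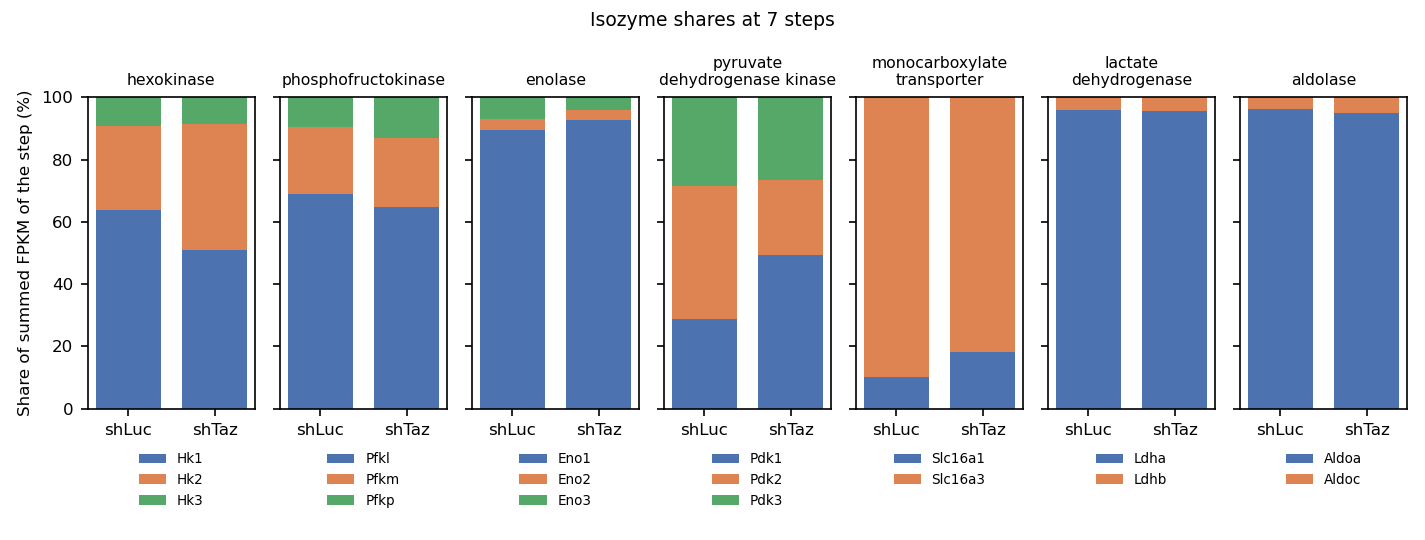
Share of each isozyme in the summed FPKM of its step, in percent, for shLuc and shTaz at 7 steps, with 1 deposited value per group and no error. The hexokinase, pyruvate dehydrogenase kinase and monocarboxylate transporter bars differ between the groups, with Pdk1 at 28.8% and 49.5%, while the lactate dehydrogenase and aldolase bars stay nearly level. The enolase bars leave out the copy Gm5506.

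The pyruvate dehydrogenase genes differed in both directions. Of 5 genes 2 were 1.5-fold higher and 1 was 1.5-fold lower, beside 17.3% and 9.96% of all genes. The list median was 0.011. Pdk1 (chr2:71873224-71903858, plus strand), the kinase known as a HIF1 target that inactivates E1 by phosphorylation, was at 7.75 FPKM in shLuc and 14.4 FPKM in shTaz, a difference of 0.82. Pdk2 (chr11:95026258-95041354, minus strand), the widely expressed kinase, was at 11.5 and 7.0 FPKM, a difference of -0.64, and Pdk3 was level at 7.65 and 7.71 FPKM. The ratio of Pdk1 to Pdk2 was 0.675 in shLuc and 2.06 in shTaz.

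The order of the kinases was thus reversed, with Pdk2 the most abundant in shLuc and Pdk1 in shTaz. Their sum differed little, at 26.9 and 29.1 FPKM. Pdk4, the kinase linked to fasting and fat oxidation and not among the 39 genes, was at 6.05 and 5.68 FPKM. With it included, Pdk1 held 23.5% and 41.4% of the kinase transcripts. Without Pdk4, the Pdk1 share differed by 20.7 percentage points, and by 13.3 with the GC and length trends removed.

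The E1 enzyme on which these kinases act is built from equal numbers of alpha and beta subunits, and their transcripts differed in opposite directions. Pdha1 (chrX:160122209-160138413, minus strand), the alpha subunit that carries the phosphorylation sites, was at 19.8 FPKM in shLuc and 37.3 FPKM in shTaz, a difference of 0.88, the largest of the 39 genes to the higher side. Pdhb (chr14:8165996-8173025, minus strand), the beta subunit, was at 27.6 and 19.6 FPKM, a difference of -0.47. The ratio of Pdha1 to Pdhb was 0.716 and 1.90. Exons of Pdha1 overlap those of Map3k15 on the other strand by 603 bases, but Map3k15 was at 0.238 and 0.367 FPKM.

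The other subunits of the complex are not among the 39 genes. Dld, the E3 enzyme, was 1.5-fold higher at 8.50 and 13.6 FPKM, but its difference of 0.62 was 0.087 with the trend over GC content removed. The E2 gene Dlat was at 5.10 and 6.15 FPKM, and Pdhx at 2.56 and 3.09 FPKM. Pdpr, the regulator of the phosphatase that reactivates E1, was at 0.232 and 2.30 FPKM, a difference of 1.42. The mitochondrial pyruvate carrier genes Mpc1 and Mpc2, listed as Brp44l and Brp44, were at 20.3 and 23.2 FPKM and at 26.2 and 21.2 FPKM.

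In the pentose phosphate pathway 1 gene stood apart. Pgls, the lactonase of the second oxidative step, was at 136 FPKM in shLuc and 59.5 FPKM in shTaz, a difference of -1.18, and 2.29% of all genes lay lower. The dehydrogenases before and after it did not share this: G6pdx, the entry enzyme, was at 13.2 and 16.5 FPKM, and Pgd at 67.0 and 70.2 FPKM. The ratio of Pgls to Pgd was 2.03 in shLuc and 0.848 in shTaz. Pgls lies on chromosome 8 from 71592176 to 71601092 on the plus strand of mm10 and shares 776 exonic bases with Fam129c on the same strand, which was at 1.21 and 0.958 FPKM.

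Of the non-oxidative branch, 3 genes lay within 1.5-fold. Tkt, transketolase, was at 53.3 FPKM in shLuc and 55 FPKM in shTaz, Taldo1, transaldolase, at 73.0 and 64.0 FPKM, and Rpia, the ribose phosphate isomerase, at 5.42 and 5.67 FPKM. The phosphoglucomutase rows were both higher in shTaz by less than 1.5-fold. Pgm2 was at 26.2 and 31.9 FPKM and Pgm1 at 3.56 and 4.56 FPKM.

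Base composition moved with the differences and is given beside them. Over 11085 genes with a known transcript sequence, the difference and the GC content of the longest transcript had a Spearman correlation of -0.56. Genes are not independent replicates, and all share the same pair of columns. Over the 39 pathway genes it was -0.40. Slc16a1 has the lowest GC content of the 39, 42.9%, and Pdha1 and Pdk1 have 45.5% and 46.4%. The lower genes Pdk2 and Pgls have 56.9% and 57.4%.

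With the GC trend over all genes removed, 3 pathway genes were 1.5-fold higher (7.14% of all genes) and 2 were 1.5-fold lower (10.2%). Hk2 was then at 0.78, Slc2a1 at 0.65 and Pgls at -0.94, and each kept its side of 1.5-fold. Slc16a1 was at 0.27, Pdk1 at 0.50, Pdha1 at 0.52 and Pdk2 at -0.43, each with its direction but within 1.5-fold. Pfkfb4, at 0.62, and Pdhb, at -0.79, came to lie past it. With the trend of transcript length removed as well, 3 pathway genes were higher (7.25% of all genes) and 2 lower (8.95%). The higher ones were then Slc2a1, Hk2 and Fbp1, while Pfkfb4, at 0.56, lay within 1.5-fold again. The lower ones were Pdhb and Pgls. Among the 6 pathway genes with a GC content of 42 to 47%, 5 were higher in shTaz and Pdhb was lower, and of all 2469 genes in that range 82.8% were higher.

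**Figure D3:**
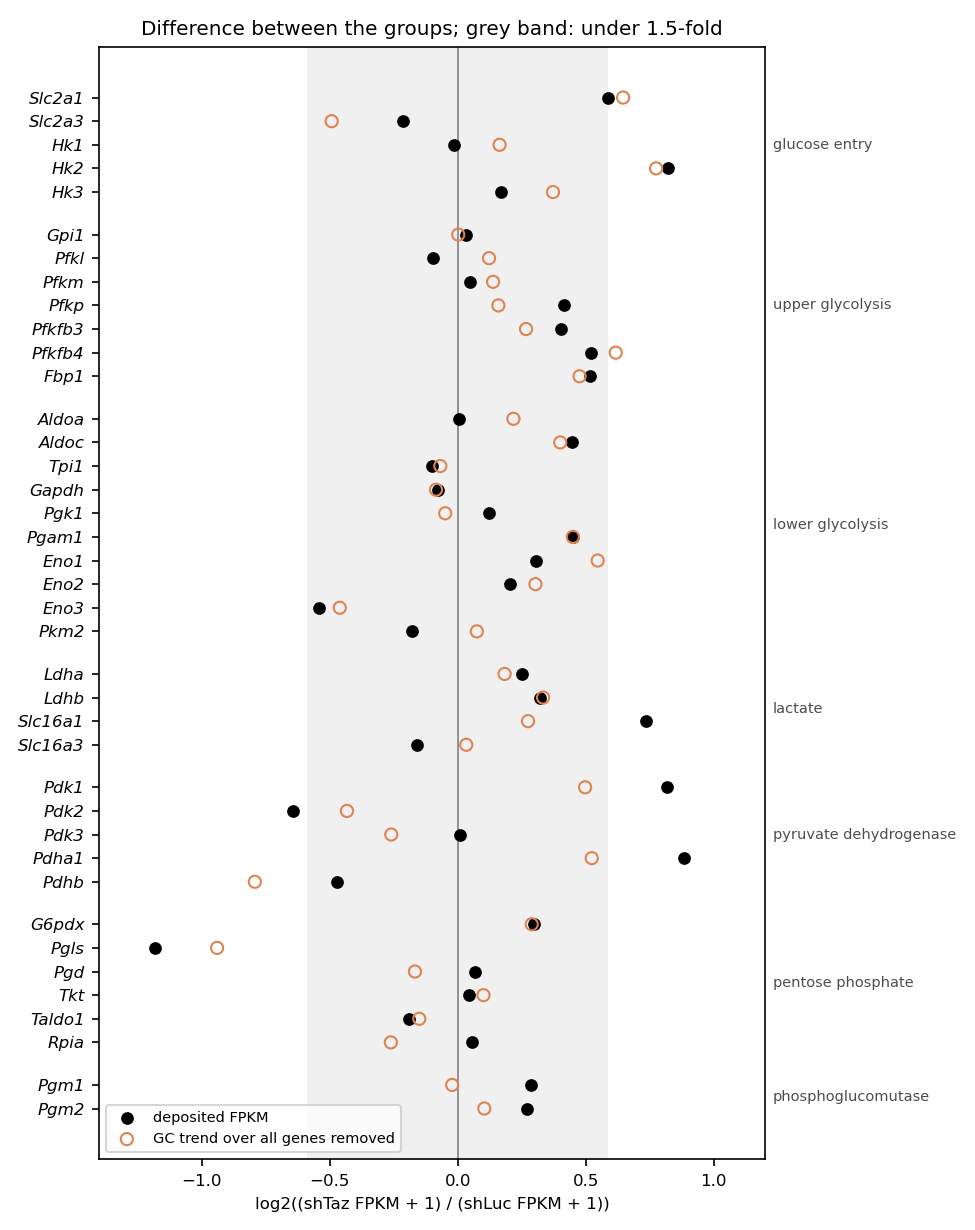
Difference of each pathway gene on the log2((shTaz FPKM + 1)/(shLuc FPKM + 1)) scale, from deposited FPKM (filled) and with the GC trend over all genes removed (open), against a grey band for less than 1.5-fold. Hk2 and Slc2a1 stay to the right of the band and Pgls to the left in both, whereas Slc16a1, Pdk1 and Pdha1 move into it.

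**Figure D4:**
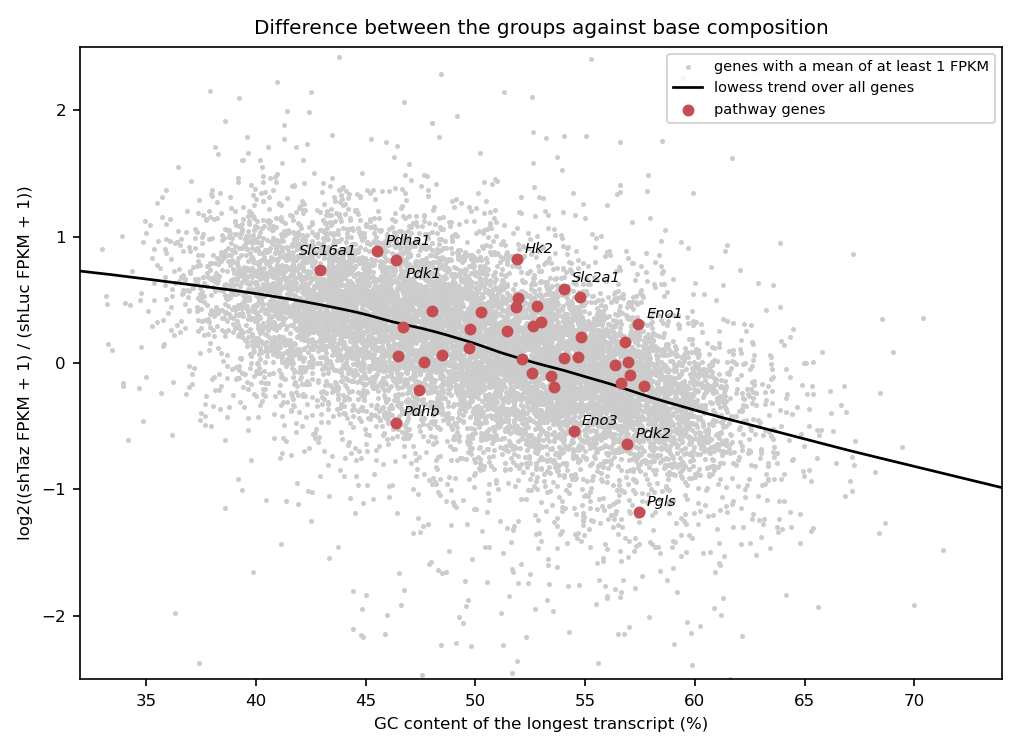
Difference between the groups on the same log2 scale against the GC content of the longest transcript in percent, for genes whose mean reached 1 FPKM (grey), the lowess trend over them (line) and the pathway genes (red), of which 10 are named. The axis leaves out 46 genes beyond 2.5. The trend falls from left to right, with Slc16a1 lying 0.27 above it, Hk2 and Slc2a1 farther above it, and Pgls and Pdhb below it.

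The neighbouring pathways were followed through 89 further genes in 7 lists, none of them among the 39. Of these 59 reached a mean of 1 FPKM, and 15 were 1.5-fold higher and none 1.5-fold lower, beside 17.3% and 9.96% of all genes, with a median of 0.23. At 2-fold, 7 were higher, beside 3.96% of all genes. Of these 7, Pdpr, Rbks and Mlxipl were below 1 FPKM in shLuc and passed the filter only through shTaz, so their calls are partly set by it. With the GC trend removed, 5 of the 56 with a GC content were 1.5-fold higher and 3 lower, beside 7.14% and 10.2% of all genes, with a median of 0.17.

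The list of ribose and further pentose phosphate genes was the one with the largest median, 0.87 over 6 genes, or 0.60 over 5 with the GC trend removed. Rpe, the ribulose phosphate epimerase, was at 1.48 FPKM in shLuc and 5.85 FPKM in shTaz. Rbks, ribokinase, was at 0.709 and 3.34 FPKM and passed the filter only through shTaz. Prps2, which makes phosphoribosyl pyrophosphate for nucleotide synthesis, was at 4.41 and 10.5 FPKM. These 3 genes were 2-fold higher, and Prps1, at 13.9 and 22.3 FPKM, was 1.5-fold higher. Their differences were 0.65 to 1.46, but these genes are the ones of the list that passed 1.5-fold. The other tested genes of the list, H6pd and Idnk, were at -0.18 and 0.19. Tkt, Taldo1 and Rpia lay between -0.19 and 0.06. With the GC trend removed, Rbks was at 1.2, Rpe at 0.89, Prps2 at 0.60 and Prps1 at 0.26, so that Rpe and Prps2 were no longer 2-fold and Prps1 no longer 1.5-fold higher. Whether the list differs from Tkt, Taldo1 and Rpia was not tested.

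Regulators of glycolytic genes held 3 genes with 2-fold higher values among 11, beside 3.96% of all genes. Mlxipl, which encodes the glucose-responsive factor ChREBP, was at 0.568 FPKM in shLuc and 4.27 FPKM in shTaz, and passed the filter only through shTaz. Hif1a was at 3.75 and 8.61 FPKM, and Prkaa1, a catalytic subunit of the energy sensor AMPK, at 2.18 and 5.37 FPKM. With the GC trend removed these differences were 1.94, 0.50 and 0.46, so that those of Hif1a and Prkaa1 came to lie within 1.5-fold. Myc, at 28.2 and 23.8 FPKM, was lower by less than 1.5-fold.

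In the other lists no gene except Pdpr was 2-fold different. Tigar, the bisphosphatase listed as 9630033F20Rik, was at 1.82 and 3.64 FPKM, and Pgm2l1, a phosphoglucomutase-like gene, at 0.914 and 2.57 FPKM. Pgm2l1 passed the filter only through shTaz. Gpd2, the mitochondrial glycerol phosphate dehydrogenase, was at 2.57 and 4.51 FPKM, and Adpgk, an ADP-dependent glucokinase, at 15.7 and 20.5 FPKM. As a contrast, 16 genes of the tricarboxylic acid cycle had a median of 0.08. Of these 1, Suclg2, was 1.5-fold higher at 9.11 and 18.4 FPKM, beside 17.3% of all genes. With the GC trend removed Tigar was at 0.53, Pgm2l1 at 0.38, Gpd2 at 0.31 and Suclg2 at 0.53, all within 1.5-fold.

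**Figure D5:**
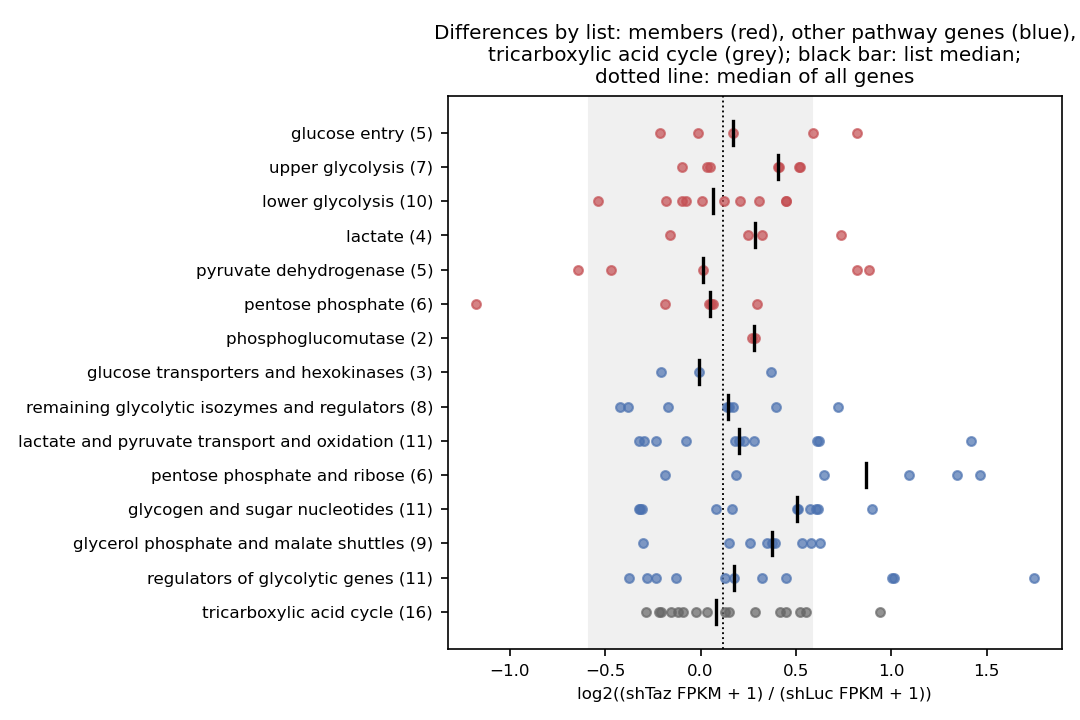
Differences on the same log2 scale for genes whose mean reached 1 FPKM, by list, with the number of genes in brackets. Points are genes, black bars list medians, the grey band less than 1.5-fold and the dotted line the median of all genes, 0.12. Most medians lie near the dotted line, and that of the ribose list, 0.87, lies farthest from it.

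Markers of other cell types also differed between the groups, and their part in the values above was not tested. Of 8 fibroblast markers 6 were 1.5-fold lower in shTaz, beside 9.96% of all genes. The 8 markers summed to 1800 FPKM in shLuc and 1009 FPKM in shTaz. Macrophage markers were abundant, at 4223 and 3691 FPKM in sum. Of the 10, 5 were lower in shTaz. Itgam and Mrc1 were 1.5-fold higher, beside 17.3% of all genes. With the GC trend removed these 2 were at 0.42 and 0.26, within 1.5-fold. Neutrophil markers, of which 3 of 8 reached a mean of 1 FPKM, summed to 6.61 and 57.5 FPKM. All 3 were higher in shTaz, but S100a8 (0 and 18.6 FPKM) and S100a9 (0.81 and 29.2 FPKM) reached that mean only through shTaz. Their direction was thus largely set by the filter. Csf3r was at 3.93 and 7.10 FPKM. Of the markers below the filter, Retnlg was listed at 0 in shLuc, and Mmp8 and Camp at 0 in shTaz. Cxcr2, also below it, was at 0.867 and 0.694 FPKM. Hk3, a gene of such cells, differed by 0.17. Erythroid markers, whose cells rely on glycolysis alone, summed to 285 and 240 FPKM. Even so, 2 of the 4 tested were 1.5-fold higher, beside 17.3% of all genes. Of these 2, Hba-a2, at 0.413 and 1.61 FPKM, passed the filter only through shTaz.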

How the data were processed

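Messenger RNA of subcutaneous tumors was sequenced in 4 samples, 2 with a luciferase control hairpin and 2 with Taz knockdown. The submitters' processing notes name TopHat and Trim Galore as tools and mm10 as build. Their versions, the FPKM program, the annotation and the strand setting are not given in the sources used here. The authors deposited FPKM values in 1 column per group, and its heading matches a label of both samples of that group. No gene is listed at 0 in both columns.

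The depth is not known. Whole reads could not be recovered: at the best step, 26.6% of 267 low values in the shLuc column lay within 0.1 of a whole number, and 31.4% of 207 in the shTaz column, against 20% by chance for any 1 step. With no value per sample, no test was run. FPKM depends on the mapped total and is not corrected here for GC content or abundant RNAs such as Rn45s, at 64727 and 53518 FPKM.

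Differences were computed with a pseudocount of 1 for genes whose mean reached 1 FPKM. Every one of the 39 genes is named, with sizes of 1.5-fold and 2-fold as the call. Of each further list, genes with a 2-fold difference are named, or else the one that differed most; others named, such as Bsg, Emb, Dld, Dlat, Pdhx, Mpc1, Mpc2, Pdk4, Prps1, Myc and Gm5506, were chosen after their values were seen. The members and lists were chosen with earlier results of these data known. Positions, GC content and length come from the longest transcript in GENCODE M21, promoters from RefSeq (GRCm38.p6). Trends were removed with lowess (span 0.3, statsmodels 0.14.6), checked on simulated data. Near-identical copies were searched with blastn (at least 95% identity over 500 bases). Alternatives were other pseudocounts, filters, scalings and trend removals.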

Additional observations from a re-analysis of the deposited data

How the results depend on the processing

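Each of the 10 alternatives kept the direction of the 7 pathway genes that were 1.5-fold different. Pgls stayed past 1.5-fold in all 10 (-1.31 to -0.64), Hk2 in 9 and Slc2a1 in 8. Pdha1 stayed in 7, and Slc16a1, Pdk1 and Pdk2 in 6 each. The alternatives that changed only the filter on low values left each of these differences as it was. They are counted here but could not move a call. Hk2 was at 0.54 with the length trend removed. The main count was 5 higher and 2 lower. Rescaling both columns to one sum (TPM scale) gave 11 higher and 1 lower with a median of 0.35, and median-ratio scaling gave 4 lower with a median of -0.013; the median of all genes moved with them, to 0.34 and 0.00. The count of higher genes was 3 with the GC trend removed, 2 with the length trend removed, 3 with both removed and 3 with the median GC content over transcripts, an alternative chosen after seeing the data. For both scalings, the length trend alone and the median GC content, the share of all genes past 1.5-fold was not counted. The counts under those settings thus have no background beside them. The median of the pathway genes above that of all genes, 0.0059 with the deposited values, was 0.19 after quantile normalization, 0.14 without the GC trend, 0.11 without the length trend, 0.11 without both and 0.15 with the median GC content. With both trends removed the Pdk1 share of kinase FPKM differed by 13.3 percentage points (20.7 as deposited) and the Slc16a1 share by 2.18 (7.97 as deposited). The cause of these shifts was not tested. Eno1 summed with Gm5506, also chosen after seeing the data, was at -0.037. Past 1.5-fold came Pdhb, Pfkfb4 and Fbp1 in 4 alternatives each, Pgam1 in 2, and Pfkp, Pfkfb3, Aldoc and Eno3 in 1 each. No paired analysis was possible because the table has 1 column per group, so the replicate block and leaving out a replicate were not run. Depth is unknown, so the number of fragments behind genes near 1 FPKM, such as Slc2a3 and Fbp1, cannot be given and may be small.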

Other observations

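The deposited table tags genes with KEGG pathways, which gives a list that was not assembled by hand. It was used after the values were seen. It marks 48 listed genes as glycolysis and gluconeogenesis, 23 of them among the 39, and of the 19 others with a mean of at least 1 FPKM, 2 were 1.5-fold higher in shTaz and 1 was lower, beside 17.3% and 9.96% of all genes. With the GC trend removed none was higher and 1 was lower. The lower one was Aldh3a1, an aldehyde dehydrogenase gene, at 7.05 FPKM in shLuc and 1.19 FPKM in shTaz. The higher ones were Dld, already counted in the further lists above, and Aldh9a1, the latter at 8.65 and 13.6 FPKM. The abundant aldehyde genes Akr1a1 (262 and 254 FPKM) and Aldh2 (77.0 and 77.6 FPKM) were level. Of the 7 further genes tagged as pentose phosphate pathway, 5 were 1.5-fold higher (17.3% of all genes), or 4 with the GC trend removed (7.14%). Rpe, Rbks, Prps1, Prps2 and H6pd are also in the ribose list above, so most of this count repeats it. Among the 5 higher genes were Rbks, which passed the filter only through shTaz, and Prps1l3, a gene related to Prps1, at 1.21 and 5.18 FPKM. Reads shared between Prps1 and Prps1l3 were not examined. Dera, the deoxyribose phosphate aldolase, was at 12.0 and 17.3 FPKM, a difference of 0.50.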
